A study of Arabidopsis thaliana with 24 samples.

Results

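The leaf-enriched genes described here are 141 of the 22746 probe sets of the Arabidopsis ATH1 array that are not controls. A probe set is a group of probes on the array that reports 1 transcript or several similar ones, and its signal is a brightness on a linear scale. The members were chosen from the arrays of wild type plants grown at + Fe. In each of the 3 harvest weeks the log2 signal of roots, with 16 added to each signal, was subtracted from that of leaves, and the 150 probe sets with the largest minimum of the 3 differences were taken. Of these 150, 9 were set aside: 2 plastid-encoded genes, 2 probe sets of the study's metal homeostasis list and the 5 genes PSAG, PSBY, PSBW, PSB27 and PSAN. The rule therefore used the signals of wild type leaves at + Fe, and every difference against these arrays is given below as a description without a test.

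The study compared leaves and roots of the nas4x-1 mutant with those of wild type plants. nas4x-1 carries T-DNA insertions in all 4 nicotianamine synthase genes in the Columbia background, and nicotianamine is a small chelator that helps to move Fe, Cu and Zn through the plant. Plants grew in hydroponic Hoagland medium and were harvested at 5 weeks of age, after 7 days either without Fe (- Fe, 0 µM FeNa-EDTA) or with 10 µM FeNa-EDTA (+ Fe). There were 3 arrays each for nas4x-1 leaves at - Fe, nas4x-1 leaves at + Fe, wild type leaves at - Fe and wild type leaves at + Fe, and 3 for each of the same 4 groups of roots. The 3 replicates of a group came from 3 consecutive harvest weeks, and nas4x-1 is a single mutant line.

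Leaf cells differ from root cells mainly by their chloroplasts. There the light harvesting antennae and the photosystems capture light, the Calvin cycle fixes CO2, and photorespiration recovers carbon from the side reaction of Rubisco with oxygen. The photosystems, the cytochrome complex and ferredoxin carry Fe, so the chloroplast holds much of the Fe of a leaf, and leaves short of Fe become chlorotic. Other genes typical of green leaves encode enzymes of chlorophyll synthesis, proteins that shape or protect thylakoid membranes, and chloroplast proteins that accumulate in the cold.

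The leaf and root labels were checked first, on the few defining genes that had a probe set of their own in the annotation used here. None of the 5 leaf markers and none of the 4 epidermis markers had one. Of 10 root markers 2 were measured, the root hair expansins EXPA7 and EXPA18, and their summed signal was 149 to 451 in roots. In leaves it was 7.92 to 20.8 in nas4x-1 at - Fe, 9.80 to 25.7 in nas4x-1 at + Fe, 7.21 to 15.4 in wild type at - Fe and 4.296 to 7.463 in wild type at + Fe. Its part in the differences between leaf groups was not tested. Of the mutated genes, NAS1 had leaf signals of 5.33 to 23.1 in nas4x-1 and 85.8 to 431 in wild type. NAS3 had 10.1 to 48.7 in the mutant and 22.7 to 355 in wild type, and NAS4 had 1.2 to 40.8 in the mutant and 41.5 to 593 in wild type. NAS2 had 15.6 to 109 in the mutant and 1.6 to 13.4 in wild type, so its signal was higher in the mutant, and where its probes lie relative to the insertion is not given in the sources used here. In bulk leaves, fewer cells of a type and less RNA per cell cannot be told apart.

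Of the 141 members, 49 were matched to 1 gene, 1 to several genes and 91 to none in the annotation used here, so roles can be given only for some of the 49. Of the 49 named genes, 22 lie on chromosome 1, 9 on chromosome 2, 7 on chromosome 3, 4 on chromosome 4 and 7 on chromosome 5. COR15B and COR15A are direct neighbours, and PRK and LrgB are separated by 1 protein-coding gene. Members with a well known role include LHCB4.2, a minor antenna protein of photosystem II; PSAE-1, a subunit of photosystem I; RCA, PRK and SBPASE of the Calvin cycle; GLDH3 (AT1G32470), HPR1 and LrgB of photorespiration; and PORB of chlorophyll synthesis.

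The rule values, that is the smallest of the 3 log2 differences of leaves and roots, were between 4.69 and 7.19 with a median of 5.53. Among named members they were largest in COR15A with 7.07, in AT1G23130 with 6.96, in ECS1 with 6.95 and in AT1G09310 with 6.85. COR15A encodes a chloroplast protein that protects membranes during freezing. They were followed by the Calvin cycle kinase PRK with 6.61, PIFI, a chloroplast protein of the NDH complex pathway, with 6.58, the peroxisomal hydroxypyruvate reductase HPR1 with 6.41, LHCB4.2 with 6.32, PSAE-1 with 6.30 and AT3G62550 with 6.21. The 5 members just inside the limit were 266716_at and 248151_at with 4.73 each, AT1G68600 with 4.71, AT3G61870 with 4.70 and 267607_s_at with 4.69. Just outside it were LHCB4.1 with 4.67, 254460_at with 4.67, AT1G51090 and AT5G57345 with 4.65 each and AT2G39920 with 4.65.

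The rule favours transcripts with a strong leaf signal. Together the members held 9.58 ± 0.216% of the summed signal in nas4x-1 leaves at - Fe and 9.80 ± 0.533% in nas4x-1 leaves at + Fe, and 9.50 ± 0.201% in wild type leaves at - Fe and 10.0 ± 0.162% in wild type leaves at + Fe (SD, n = 3 arrays each). In roots, the share was between 0.0632% and 0.129% on each of the 12 arrays. The deposited signals had been given the same distribution on all arrays, so a change common to many bright probe sets would show only in part.

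The leaf bias was then examined in the 3 conditions that the rule had not used. In nas4x-1 at - Fe, in nas4x-1 at + Fe and in wild type at - Fe, each of the 141 members was higher in leaves than in roots (limma, adjusted p at most 0.000757, 6.91e-06 and 2.73e-05 in that order). This compares with 19.7%, 20.2% and 19.7% of all probe sets that were higher in leaves in these conditions. For every member and in each condition, all 3 leaf arrays were above all 3 root arrays. The median log2 difference was 5.67 in nas4x-1 at - Fe, 5.88 in nas4x-1 at + Fe and 5.76 in wild type at - Fe.

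ECS1 had the largest difference in each of these conditions, with 7.81 in nas4x-1 at - Fe, 7.77 in nas4x-1 at + Fe and 7.70 in wild type at - Fe. Among named members it was followed in nas4x-1 at - Fe by AT1G09310 with 6.91, PSAE-1 with 6.89, AT1G23130 with 6.72, AT2G41090 with 6.72, SBPASE with 6.70, PRK with 6.63, PIFI with 6.41, HPR1 with 6.30 and LHCB4.2 with 6.30. The smallest difference at - Fe belonged to the unnamed probe set 250073_at in both genotypes, with 2.77 in the mutant and 3.70 in wild type. In nas4x-1 at + Fe the smallest was 3.79 in 250207_at.

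**Figure D1:**
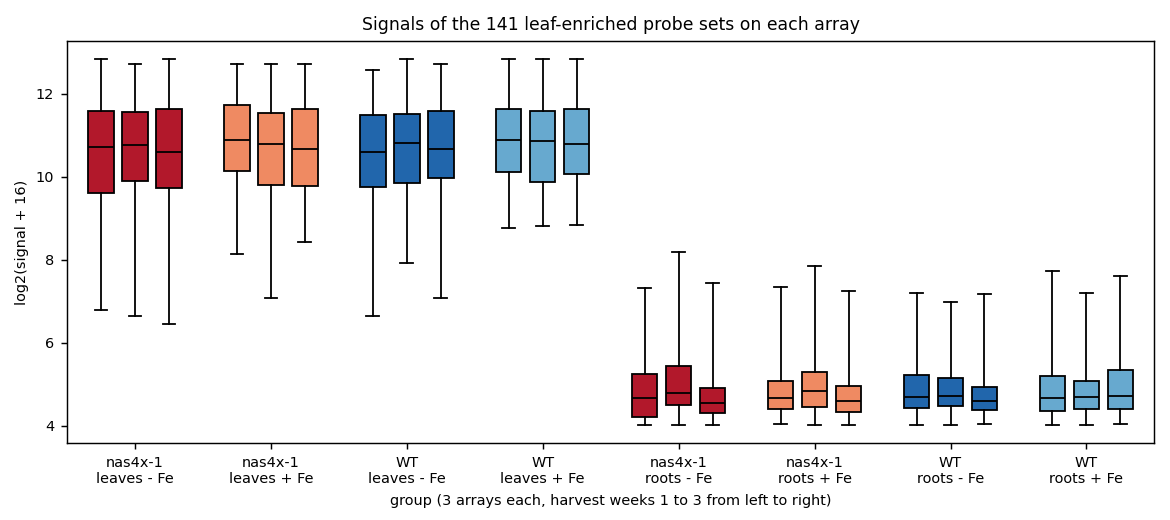
Signals of the 141 members as log2(signal + 16) on each of the 24 arrays, with boxes for the quartiles, a line for the median and whiskers to the lowest and highest member. On every array of leaves the median lies far above that on every array of roots, and the medians of the 12 leaf arrays lie close together.

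The question of Fe supply was addressed first in nas4x-1 leaves, whose arrays the rule did not use. The median of the leaf-enriched genes lay near 0, and a few members were much lower at - Fe. None of the 141 passed the test (limma, smallest adjusted p = 0.131), against 0.0747% of all probe sets, of which 8 were higher and 9 were lower at - Fe. At an unadjusted p under 0.05, 7 members were higher and 11 were lower, or 4.96% and 7.8%, against 3.61% and 3.87% of all probe sets. These counts rest on single arrays, with 1 higher and 8 lower without nas4x-1 at + Fe in week 2, and 10 higher and 5 lower without week 1. With each leaf array left out in turn they were between 1 and 10 higher and between 5 and 14 lower. The shares of all probe sets were not computed for these fits, so an effect on the whole array cannot be told apart. The median log2 change of the members was -0.02, against a median of 0.00 for all probe sets, and 118 members were within 0.5 of 0. The quartiles were -0.233 and 0.164 for the members and -0.134 and 0.139 for all probe sets, so the members were spread more widely. In weeks 1, 2 and 3 the median of the members was -0.125, 0.122 and 0.0123, so the weeks did not share a direction. With the harvest week as a block 2 members passed, both lower at - Fe, or 1.42%, against 0.308% of all probe sets that were lower. Changes of more than 1 were uneven, with 7 members lower and 1 higher at - Fe. That is 4.96% of the members lower by this much, against 0.598% of all probe sets, and 0.709% higher, against 0.444%. Brightness was not matched in these shares, and only 1776 other probe sets were at least as bright in leaves as the dimmest member.

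The antenna member LHCB4.2 and the photosystem member PSAE-1 had small differences with Fe supply. LHCB4.2 had signals of 4558, 4217 and 4217 in nas4x-1 leaves at - Fe in weeks 1 to 3, and 4154, 4436 and 4181 at + Fe (log2 change 0.02, SE 0.142). PSAE-1, which docks ferredoxin at photosystem I, had 4265, 3865 and 3960 at - Fe and 4292, 4121 and 3672 at + Fe (0.00, SE 0.145). In both genes the groups overlapped. CURT1A and CURT1C, which bend the thylakoid membrane, had log2 changes of -0.07 (SE 0.138) and -0.21 (SE 0.189). Of the NDH complex, which cycles electrons around photosystem I, the subunit NdhL had 0.22 (SE 0.183) and NdhS, the subunit that binds ferredoxin, had -0.52 (SE 0.258). The CURT1 and Ndh members fall outside the rule by which genes were named and were chosen after their values were seen.

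The members of the Calvin cycle were brighter at - Fe in each harvest week, without passing the test. RCA, the activase of Rubisco, had 4735, 4436 and 4292 in nas4x-1 leaves at - Fe, and 4084, 3723 and 4036 at + Fe (log2 change 0.18, SE 0.151, adjusted p = 0.843). PRK, which makes the acceptor of CO2, had 3153, 2938 and 3020 at - Fe and 2557, 1986 and 2647 at + Fe (0.35, SE 0.159, adjusted p = 0.666). SBPASE, a phosphatase that feeds the regeneration of this acceptor, had 2005, 2079 and 2300 at - Fe and 1798, 1342 and 1933 at + Fe (0.34, SE 0.180, adjusted p = 0.710). In all 3 genes the groups did not overlap, and the lowest array was that of + Fe in week 2. Without it the change was 0.22 for PRK and 0.19 for SBPASE. Groups without overlap were seen in 24 of 141 members, 12 higher and 12 lower, or 8.51% in each direction, against 5.61% higher and 5.56% lower among all probe sets.

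Among the members of photorespiration, GLDH3, which encodes an H protein of the mitochondrial glycine decarboxylase, stood out by its small spread. It had 1940, 1692 and 1657 in nas4x-1 leaves at - Fe, against 1251, 990 and 1351 at + Fe (log2 change 0.56, SE 0.148, adjusted p = 0.335). The lowest array at - Fe lay above the highest at + Fe. LrgB, known as the glycolate and glycerate transporter of the chloroplast envelope, had 1185, 925 and 1192 at - Fe and 840, 688 and 854 at + Fe (0.46, SE 0.172, adjusted p = 0.562), likewise without overlap. HPR1 had 2920, 2539 and 2424 at - Fe and 3354, 1859 and 2085 at + Fe (0.15, SE 0.222), with its highest and its lowest value both at + Fe.

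AOR, a chloroplast reductase that detoxifies reactive carbonyls, had the largest positive change among named members. Its signals were 1474, 1190 and 964 in nas4x-1 leaves at - Fe and 928, 361 and 737 at + Fe (log2 change 0.91, SE 0.323, adjusted p = 0.532). The groups did not overlap, with 964 as the lowest at - Fe and 928 as the highest at + Fe, and the change was 0.52 without + Fe in week 2. The only larger positive change belonged to the unnamed 250207_at with 1.18, which was chosen after its values were seen.

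The largest negative change belonged to COR413IM1, a cold-regulated protein of the inner envelope of the chloroplast. It had 230.0, 423 and 140.2 in nas4x-1 leaves at - Fe, against 1447, 1388 and 765 at + Fe (log2 change -2.19, SE 0.437, adjusted p = 0.131). All arrays at - Fe lay below all arrays at + Fe. It passed once harvest week entered the fit as a block (limma, adjusted p = 0.0186). COR413IM1 was named through the study's own list of differentially expressed genes, which was chosen on these arrays, so its direction is not independent evidence.

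AT1G68600, annotated in the study's tables as an unknown protein and also part of that list, had 133.5, 247 and 113.4 at - Fe and 341, 601 and 424 at + Fe (log2 change -1.42, SE 0.303, adjusted p = 0.175), again without overlap. COR15B had 93.8, 1199 and 441 in nas4x-1 leaves at - Fe and 933, 2085 and 842 at + Fe (-1.60, SE 0.723, adjusted p = 0.665). Its neighbour COR15A had 522, 2101 and 722 at - Fe and 1933, 2880 and 972 at + Fe (-0.91, SE 0.483, adjusted p = 0.714). Both COR15 genes were lower at - Fe in each week, but their week to week range was so wide that the groups overlapped, with week 2 highest at either Fe supply. Without nas4x-1 at - Fe in week 1 the changes were -0.68 for COR15B and -0.50 for COR15A, and without week 2 they were -2.42 and -1.49. The change of COR15A was -0.56 without + Fe in week 2.

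The unnamed 263715_at, chosen after its values were seen, was the other member to pass with this block (limma, adjusted p = 0.0413). It had 577, 389.5 and 343 at - Fe and 804, 880 and 793 at + Fe (log2 change -0.93, SE 0.222, adjusted p = 0.242 without the block). With the block 2 members were thus lower at - Fe and none was higher, or 1.42% of the members, against 0.308% of all probe sets that were lower. Further unnamed probe sets, likewise chosen from their values, had changes as large as that of COR413IM1, namely 250073_at with -2.12 (SE 0.596) and 248337_at with -2.12 (SE 0.645), and neither passed with or without the block.

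PORB, the light-dependent enzyme that reduces protochlorophyllide, had 460, 2040 and 1759 in nas4x-1 leaves at - Fe and 2251, 2608 and 2259 at + Fe (log2 change -0.99, SE 0.482, adjusted p = 0.695). The low mean at - Fe came mainly from week 1, without which the change was -0.32. The same array was the lowest of all 12 leaf arrays for COR15B with 93.8 and for THIC, an iron-sulphur enzyme of thiamine synthesis, with 372. THIC had 372, 1423 and 574 at - Fe and 1183, 1768 and 862 at + Fe (-0.84, SE 0.429), and was chosen after its values were seen. AT1G80130 had 705, 121.5 and 71.6 at - Fe and 903, 332 and 529 at + Fe (-1.44, SE 0.878), so for this gene week 1 was instead the highest week at either Fe supply. Its change was -2.35 without - Fe in week 1 and -0.83 without - Fe in week 3.

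**Figure D2:**
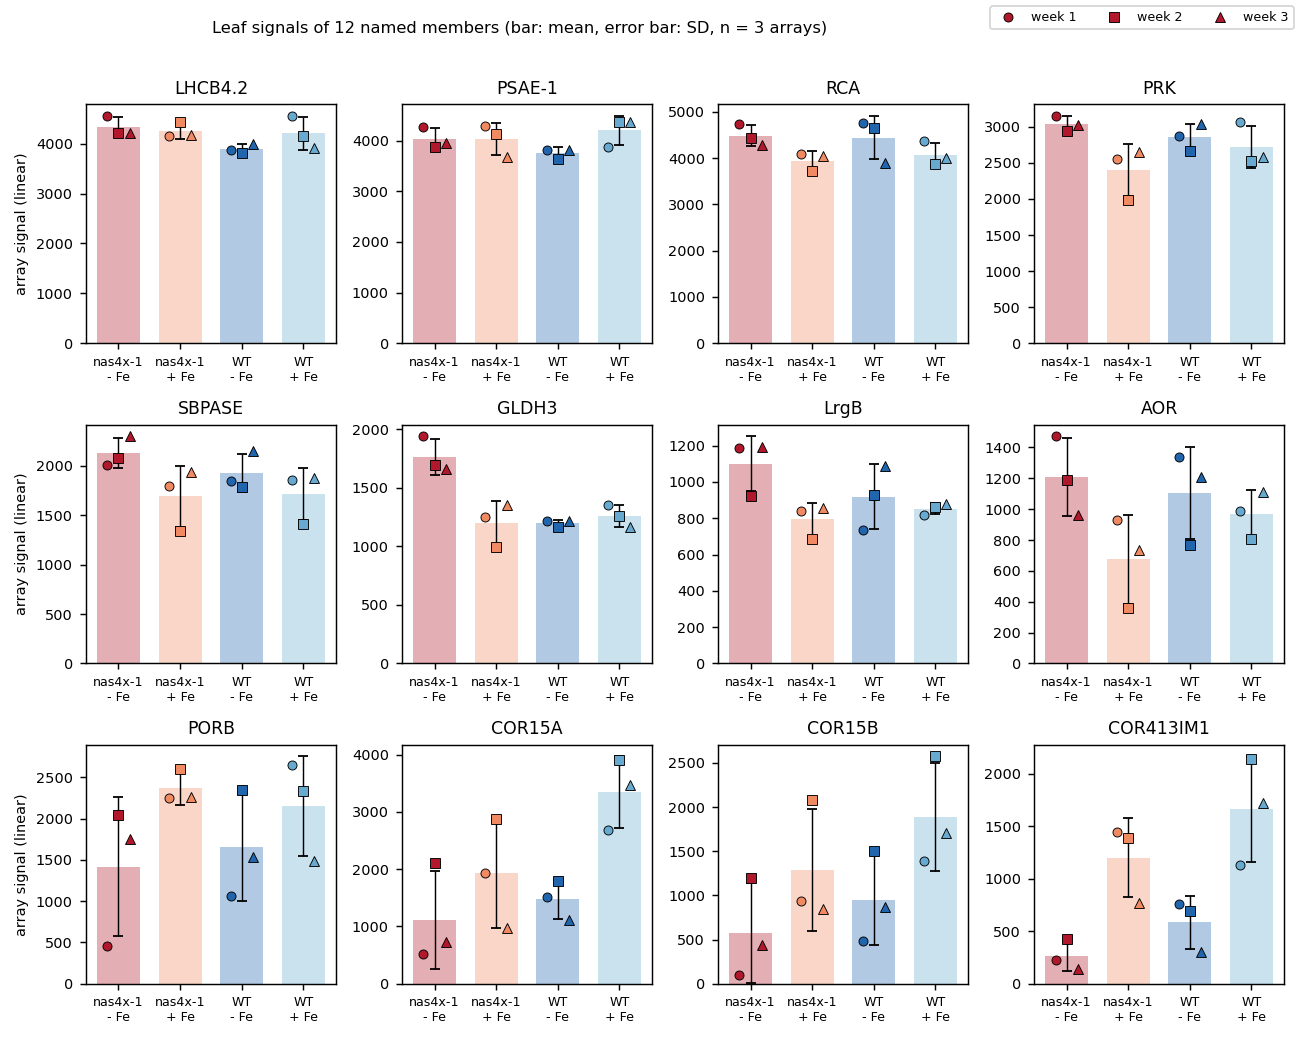
Array signals (linear scale) of 12 named members in leaves, with nas4x-1 at - Fe and + Fe to the left of wild type at - Fe and + Fe. Bars are means, error bars SD of 3 arrays and symbols the harvest weeks; GLDH3 is highest on the 3 arrays of nas4x-1 at - Fe, and the mean of COR413IM1 is lowest there.

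The second comparison free of the rule was that of nas4x-1 with wild type leaves at - Fe. It shares the nas4x-1 arrays at - Fe with the comparison above. Again none of the 141 members passed (limma, smallest adjusted p = 0.254), against 0.0659% of all probe sets, of which 5 were higher and 10 were lower in nas4x-1. At an unadjusted p under 0.05, 4 members were higher and 7 were lower, or 2.84% and 4.96%, against 4.87% and 4.27% of all probe sets. They were 2 higher and 15 lower without nas4x-1 at - Fe in week 2, and 3 higher and 1 lower without week 3. With each array left out in turn they were between 2 and 7 higher and between 1 and 15 lower. The shares of all probe sets were again not computed for these fits. The median log2 difference of the members was 0.02, against 0.01 for all probe sets, and 120 members were within 0.5 of 0. The quartiles were -0.156 and 0.152 for the members and -0.134 and 0.147 for all probe sets. With the harvest week as a block none passed either, against 0.114% of all probe sets. In 4 members, or 2.84%, the difference was below -1, against 0.725% of all probe sets, and in none was it above 1, against 0.339%. Brightness was again not matched.

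GLDH3 had the smallest p in this comparison. Its signals were 1940, 1692 and 1657 in nas4x-1 and 1214, 1165 and 1214 in wild type at - Fe (log2 difference 0.55, SE 0.148, adjusted p = 0.254), and all mutant arrays lay above all wild type arrays. AT1G52510 had 597, 665 and 598 in nas4x-1, and 426, 413 and 567 in wild type (0.40, SE 0.176, adjusted p = 0.526), also without overlap. PIFI had 1709, 2121 and 1462 in nas4x-1, and 2389, 2446 and 2268 in wild type (-0.44, SE 0.176, adjusted p = 0.479), and each mutant array lay below each wild type array. AT1G68600 had 133.5, 247 and 113.4 in nas4x-1, and 355, 314 and 347 in wild type (-1.04, SE 0.303, adjusted p = 0.279), with no overlap.

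COR413IM1 had 230.0, 423 and 140.2 in nas4x-1, and 760, 693 and 299 in wild type at - Fe (log2 difference -1.12, SE 0.437, adjusted p = 0.463). It was lower in the mutant in each week, while the ranges of the groups overlapped through week 3 of wild type. COR15B had a difference of -1.16 (SE 0.723) and COR15A of -0.63 (SE 0.483), and COR15A was lower in the mutant in only 2 of 3 weeks. Without nas4x-1 in week 1 these differences were -0.23 and -0.22, and without nas4x-1 in week 2 they were -1.97 and -1.21. LHCB4.2, with 4558, 4217 and 4217 in nas4x-1 and 3865, 3818 and 3998 in wild type, was higher on every mutant array by a small amount (0.15, SE 0.142). PSAE-1 (0.10, SE 0.145) and CURT1A (0.12, SE 0.138) likewise had no overlap. In all, the groups did not overlap in 13 members that were higher, or 9.22%, and in 5 that were lower, or 3.55%, in nas4x-1, against 7.76% and 6.47% of all probe sets.

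**Figure D3:**
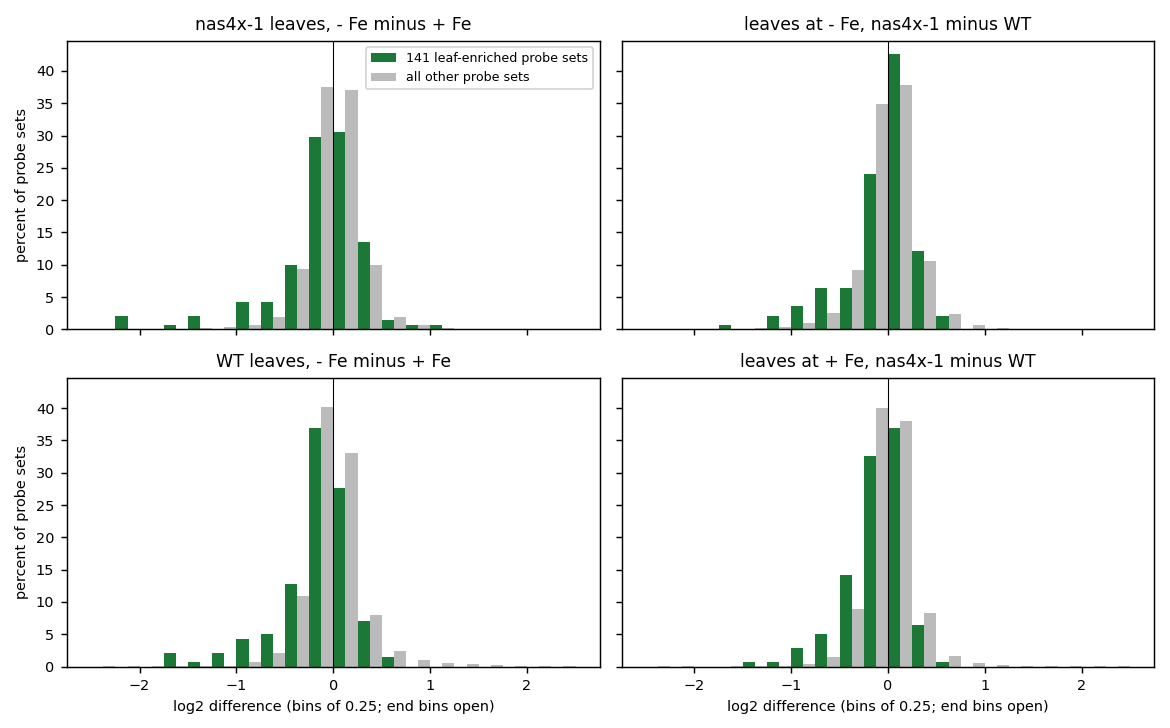
Percent of the 141 members and of all other probe sets by log2 difference, in bins of 0.25, for Fe supply (- Fe minus + Fe) in each genotype and for genotype (nas4x-1 minus wild type) at each Fe supply. Most members lie near 0 in all 4 comparisons, and the left side of each plot holds the few members with changes below -1.

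The remaining comparisons in leaves include the arrays of wild type leaves at + Fe, by which the members were chosen, so their values are given without calls. The median log2 change with Fe supply in wild type leaves was -0.07, with 51 members, or 36.2%, above 0 and 90 below. Over all probe sets the median was -0.02 and 45.8% were above 0. For genotype at + Fe the median was -0.03 for the members and -0.004 for all probe sets.

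In wild type leaves COR413IM1 had 760, 693 and 299 at - Fe and 1135, 2137 and 1719 at + Fe, a log2 change of -1.54. COR15A had 1506, 1798 and 1109 at - Fe and 2675, 3904 and 3465 at + Fe (-1.19), and COR15B had 489, 1500 and 867 at - Fe and 1393, 2575 and 1709 at + Fe (-1.07). AT1G80130 had a change of -1.50 and AT1G68600 of -0.81. GLDH3 had 1214, 1165 and 1214 at - Fe and 1348, 1258 and 1160 at + Fe (-0.06), and AOR had 1337, 768 and 1210 at - Fe and 989, 807 and 1114 at + Fe (0.16).

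Set side by side, the changes with Fe supply in nas4x-1 and in wild type come from different arrays of the same harvest weeks, those of wild type at + Fe being arrays of the rule. Of the 141 members 61 were below 0 and 37 above 0 in both genotypes, and these shares were not computed for all probe sets. Across the members, which are not independent replicates, Pearson's r between the changes was 0.73 (n = 141 probe sets), and 0.68 without COR413IM1, COR15A and COR15B (n = 138). Across all 22746 probe sets it was 0.36. Only 1776 other probe sets were at least as bright in leaves as the dimmest member, and r was not computed for them alone. The unnamed 250207_at ran opposite, with 1.18 in the mutant and -0.66 in wild type. Its signals were 944, 343 and 531 in nas4x-1 at - Fe and 267, 118.2 and 415 in nas4x-1 at + Fe, and in wild type 765, 264 and 326 at - Fe and 608, 540.5 and 842 at + Fe.

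**Figure D4:**
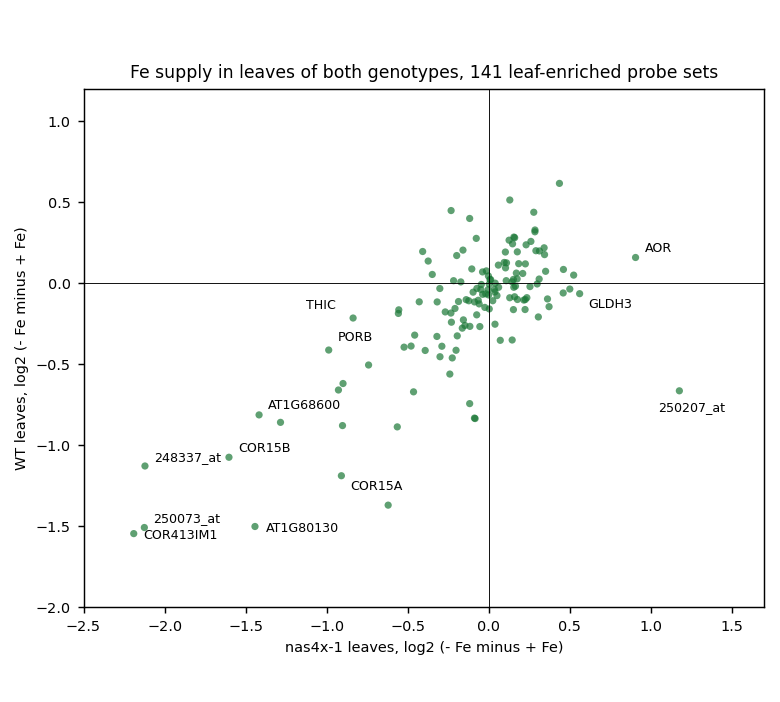
Log2 change with Fe supply (- Fe minus + Fe) in nas4x-1 leaves on the x axis and in wild type leaves on the y axis, 1 point per member. Most points lie near 0, the points at the lower left include COR413IM1 (-2.19 and -1.54) and COR15B (-1.60 and -1.07), and 250207_at lies apart at the lower right.

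Members differed widely in how much they varied, over group means that include the arrays of the rule. The range of the 4 leaf group means was between 0.03 and 2.84 (log2) with a median of 0.35, and it was under 0.5 in 97 members and over 1 in 16. A range over 1 was found in 11.3% of the members, in 4.04% of all probe sets, and in 128 of 1776 other probe sets at least as bright as the dimmest member. The named members with the largest ranges were COR413IM1 with 2.66, AT1G80130 with 2.34, COR15B with 2.23, AT1G68600 with 1.86 and COR15A with 1.82. Those with the smallest were AT5G38980 with 0.09, AT5G58330, the chloroplast NADP-malate dehydrogenase, with 0.13, AT2G25510 with 0.14, ALDH11A3, a cytosolic glyceraldehyde phosphate dehydrogenase, with 0.14, and LHCB4.2 with 0.15.

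The lowest of the 4 group means was that of nas4x-1 leaves at - Fe in 45 members, of nas4x-1 at + Fe in 31, of wild type at - Fe in 37 and of wild type at + Fe in 28. The nas4x-1 leaves at - Fe also held the highest mean in 50 members, against 32 in nas4x-1 at + Fe, 14 in wild type at - Fe and 45 in wild type at + Fe.

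Harvest weeks also spread the members. After removing the group means, the range of the 3 week means was between 0.01 and 1.89 (log2) with a median of 0.33, and it exceeded the range of the group means in 54 of 141 members. Week 1 was the highest in 56 members, week 2 in 32 and week 3 in 53. The pooled SD within groups was 0.26 (log2) at the median of the members and 0.22 at the median of all probe sets. AT1G80130 and COR15B had the widest week ranges among named members, with 1.89 and 1.77.

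**Figure D5:**
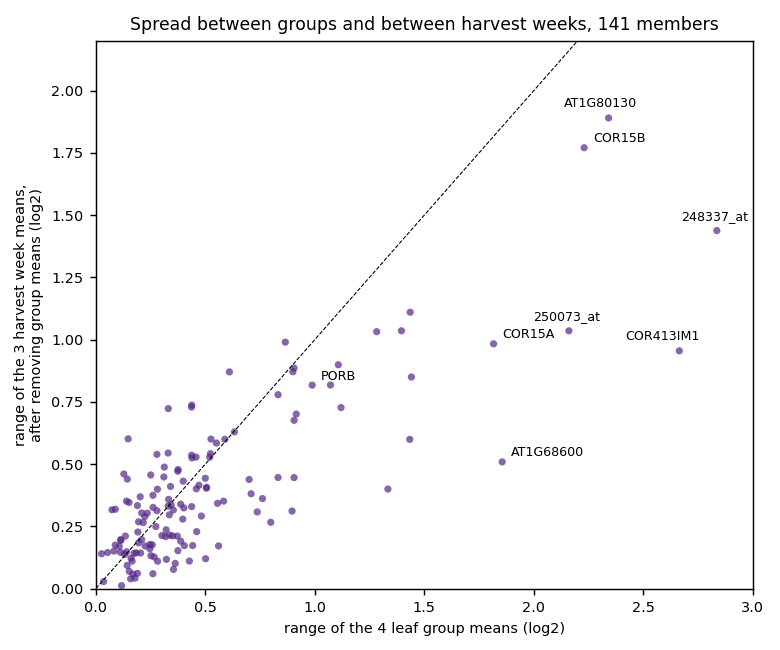
Range of the 4 leaf group means (x axis, log2) and range of the 3 harvest week means after removing the group means (y axis, log2), 1 point per member. Points above the dashed line of equal ranges, 54 of 141, had a wider range of week means than of group means.

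Over the 12 leaf arrays, the members did not follow a single course. Pearson's r of a member with the mean standardised pattern of all members had a median of 0.25, and ECS1, with -0.70, and AT1G76960, with -0.61, ran against it (both chosen as the lowest). The non-members most like this mean pattern were AT1G63520 with r = 0.90, AT4G32190 with 0.90 and the unnamed 266224_at with 0.90, each over 12 arrays.

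Genes of the same pathways, members included, were followed in leaves through 12 lists with 202 genes in all. Of these, 35 genes of 10 lists had a probe set matched to them alone, and 9 of the 35 were members. None of the 35 passed in either comparison free of the rule. Of light harvesting 3 of 20 genes were measured, with a median log2 change with Fe supply in nas4x-1 leaves of 0.02, and of photosystems and electron transport 3 of 31, with 0.00. Of carbon fixation 4 of 24 were measured, 3 of them members, and all 4 were above 0, with a median of 0.35. Of photorespiration 5 of 19 were measured, 3 of them members, and all 5 were above 0, with a median of 0.42. Both lists thus largely repeat the members described before. Over all probe sets 50% were above 0 and the median was 0.00.

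Some list genes outside the members that did not pass are described as well, chosen after their values were seen. In photorespiration, AT1G11860, the T protein of glycine decarboxylase, had 2000 ± 73.8 (SD, n = 3 arrays) in nas4x-1 leaves at - Fe and 1498 ± 227 at + Fe (log2 change 0.42, SE 0.155, adjusted p = 0.550 in limma). Of chlorophyll synthesis, 8 of 24 genes were measured, and 5 were above 0 with Fe supply in nas4x-1, with a median of 0.19. At - Fe the genotype difference of 7 of these 8 was above 0, with a median of 0.36, against 51.7% of all probe sets above 0, none of the 8 passed, and the only one below 0 was the member PORB. CHLI2, a subunit of magnesium chelatase, had 320 ± 84.4 in the mutant and 191 ± 52.0 in wild type (SD, 0.69, SE 0.236, adjusted p = 0.387 in limma).

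Of the list genes outside the members, NYC1 and GI passed the test of Fe supply in nas4x-1 leaves, and only if harvest week was a block. NYC1, a chlorophyll b reductase that starts chlorophyll breakdown, had 108 ± 47.6 (SD, n = 3 arrays) in nas4x-1 leaves at - Fe and 695 ± 143 at + Fe (log2 change -2.56, SE 0.410), with adjusted p = 0.0576 in limma and 0.00876 with the block. GI, a regulator of the circadian clock, had 198 ± 108 at - Fe and 450.5 ± 212 at + Fe (-1.18, SE 0.498), with adjusted p = 0.636 in limma and 0.0337 with the block. SAPX, an ascorbate peroxidase of the chloroplast stroma, had 66.7 ± 36.7 at - Fe and 328 ± 20.4 at + Fe (-2.16, SE 0.469), and it did not pass (limma, adjusted p = 0.178, and 0.0612 with the block).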

How the data were processed

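Signals of 24 Affymetrix ATH1 arrays were used. The intensities, as deposited by the authors, were computed in the Affymetrix Microarray Suite, scaled in GCOS to a target signal of 100 and quantile normalised over all 24 arrays, on a linear scale. Raw image files were not used here. Signals were increased by 16 and taken to log2 without further normalisation. The 12 leaf arrays, or all 24 arrays for leaves against roots, were fitted in limma 3.58.1 (R 4.3.3) with an intensity trend, and p-values were adjusted by Benjamini and Hochberg over 22746 probe sets, with a threshold of 0.05. The spread was pooled over all arrays fitted. The SE and p-values, those of leaves against roots included, therefore draw in part on the arrays of the rule. The fit was tested on simulated data drawn without an effect of the harvest week. That test therefore says nothing about arrays that share a week. Tables and plots were made in Python 3.11.15. The number of arrays limits the precision, p-values measure only the spread between arrays of 3 harvests, and 3 arrays against 3 allow no exact p below 0.1.

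Replicate numbers are harvest weeks, as the study's design states. Residuals of leaf arrays of the same week correlated between 0.17 and 0.505, and those of different weeks between -0.447 and 0.122, so the weeks pair the arrays. SE and p-values are from the fit without the week unless a block is named. With the block, 11 members were higher and 20 lower at an unadjusted p under 0.05 (limma) for Fe supply in nas4x-1 leaves. Without it they were 7 and 11. For genotype at - Fe they were 6 and 15 with the block and 4 and 7 without it. The shares of all probe sets at this unadjusted setting were not computed. At an adjusted p under 0.05 (limma), the block also raised the numbers over all probe sets. For Fe supply these rose from 8 higher and 9 lower to 57 and 70, and for genotype from 5 and 10 to 9 and 17. The rise in the members is therefore not read as a result about them. In the comparisons free of the rule, other results with the block are printed where they change a call.

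Gene names came from the platform annotation through RefSeq (TAIR10.1), and for 1 member from the study's tables. Over all probe sets, 13706 had 1 gene, 505 several and 8535 none listed in these tables. GLDH3 is named from the gene lists used here. Of the members, 6 have probe sets that may report more than 1 gene. Members and gene lists were chosen with earlier results of these data known. Named were, per comparison, up to 10 members in each direction past the threshold with 1 direction in all 3 weeks, and the 5 smallest p where fewer than 5 passed, the 10 largest rule values, 5 members on either side of the limit, up to 4 members of a list by mean leaf signal, list genes outside the members where they passed, the 5 largest and 5 smallest ranges of leaf group means, and the 3 most similar non-members. Alternatives were quantiles over the leaf arrays, offsets of 1 and 32, leaving out the dimmest 40% of probe sets, the block, no intensity trend, only the 6 arrays compared, leaving out each array, the ANOVA of the study's methods and other limits of the member rule. Promoter sequences were not analysed here.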

Additional observations from a re-analysis of the deposited data

Results flagged for a closer look

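In 2 named members the genotype difference of leaves ran one way in all 3 harvest weeks at - Fe and the other way in all 3 weeks at + Fe. ECS1 had a log2 difference (nas4x-1 minus wild type) of -0.15 at - Fe and 0.22 at + Fe (SE 0.184 each). AT3G61870 had -0.23 at - Fe and 0.05 at + Fe, and its value at - Fe was 0.15 without wild type at - Fe in week 3. Only named members were screened for this pattern, and its share among all members or all probe sets was not computed. The values at + Fe include the wild type arrays by which the members were chosen, so the difference between the Fe supplies is a description and was not tested.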

How the results depend on the processing

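The number of members that passed was 0 for Fe supply in nas4x-1 leaves and 0 for genotype in leaves at - Fe as reported and under every alternative, except that the replicate block gave 2 for Fe supply in nas4x-1 leaves, COR413IM1 (adjusted p = 0.0186) and 263715_at. It changed no other call of a member in these comparisons. Few of all probe sets passed under several alternatives, and none did in the ANOVA for Fe supply in nas4x-1 leaves. A count that stays at 0 therefore says little about the members. When single leaf arrays were left out, the number stayed at 0, and the median of the members ranged from -0.0552 to 0.0265 for Fe supply in nas4x-1 leaves and from 0.0112 to 0.0723 for genotype at - Fe. The first median was above 0 without nas4x-1 leaves + Fe replicate 1 (0.0265) or replicate 3 (0.00669). In leaves against roots, all 141 members passed in each condition under every alternative run, and with single arrays left out the median ranged from 5.64 to 5.87 in nas4x-1 at - Fe, from 5.82 to 5.98 in nas4x-1 at + Fe and from 5.73 to 5.87 in wild type at - Fe.

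The block, the trend, the filter and the choice of arrays fitted leave a fitted log2 difference as it is. No named member changed direction with another offset, with quantiles over the leaf arrays or in the ANOVA of the methods, but 19 results did when single arrays were left out. For Fe supply in nas4x-1 leaves their ranges were -0.17 to 0.00 for AT1G09310, -0.06 to 0.05 for PSAE-1, -0.03 to 0.50 for AT1G23130, -0.01 to 0.41 for HPR1, -0.01 to 0.05 for LHCB4.2, -0.12 to 0.14 for AT5G38980, -0.04 to 0.30 for AT5G58330, -0.25 to 0.02 for AT2G25510 and -0.01 to 0.25 for ALDH11A3. For genotype at - Fe they were -0.09 to 0.30 for AOR, -0.34 to 0.00 for AT2G41090, -0.63 to 0.15 for AT3G61870, -0.07 to 0.07 for RCA, -0.79 to 0.27 for PORB, -1.75 to 0.19 for AT1G80130, -0.14 to 0.14 for AT5G38980, -0.14 to 0.20 for AT5G58330, -0.10 to 0.02 for AT2G25510 and -0.13 to 0.16 for ALDH11A3. PORB reached 0.27 without week 1 of nas4x-1 at - Fe, and AT1G80130 reached 0.19 without week 1 of wild type at - Fe; the cause was not tested. With 3 arrays a group, the SE of a leaf comparison was between 0.129 and 0.878 (log2) among the members, with a median of 0.212.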
